A study of Mus musculus with 16 samples.

Results

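The phagocyte NADPH oxidase (NOX2) subunits Cybb, Cyba, Ncf1, Ncf4 and Rac2 were described in sorted mouse dendritic cells (DCs). They are 5 of the 19938 genes measured, each taken from its single probe set, and they were listed by name. The series holds 16 Affymetrix Mouse Gene 1.0 ST arrays from 8 mice, 1 CD24+ and 1 CD172a+ array per mouse. CD24+ is the sort for cDC1, CD172a+ (Sirpa+) the sort for cDC2. Cells came from activated bone marrow (BM) culture, grown 9 days in 5% Flt3l and then given gamma interferon and 4 hours of LPS, or from resting spleen. The length of the gamma interferon step is 22 hours in the growth protocol and 16 hours in the series design. Mice were Ciita -/- (KO) or Ciita +/+ (WT), and all were B6 and Zbtb46 GFP/+, so that every control also carried 1 GFP allele at Zbtb46, a transcription factor gene of the classical DC lineage. The deleted stretch of Ciita and the ages of the mice are not given in the sources used here. Each of the 8 groups of tissue, subset and genotype held 2 arrays, from different mice.

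NOX2 moves electrons from NADPH across the phagosome membrane and makes superoxide. Cybb (gp91phox) is its catalytic subunit and Cyba (p22phox) the membrane partner that stabilizes it. Ncf1 (p47phox) is the organizer that brings the cytosolic complex to the membrane, Ncf4 (p40phox) binds the phagosomal lipid PI3P, and Rac2 is the small GTPase of blood cells that completes the active enzyme. In DCs the oxidase consumes protons in the phagosome lumen and slows acidification and proteolysis, which is known to spare antigen for cross-presentation.

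Stretches before a RefSeq transcription start of Cybb, Ncf1 and Cyba are shown because the cultures had received gamma interferon. It induces factors that bind the interferon-stimulated response element (ISRE). The search was for the ISRE core, 2 copies of GAAA with any 2 bases between them, on both strands. It covered the 250 bases before that start on GRCm38.p6, and matches are in capitals. The promoter table held 3 of the 5 genes. The annotated extent of Cybb reaches up to chrX:9487766, so that its window, given next, lies inside the gene and before an inner start. All 3 windows lie on the minus strand and are written 5′ to 3′ in the direction of transcription, at chrX:9469325-9469574 (Cybb), chr5:134229626-134229875 (Ncf1) and chr8:122432941-122433190 (Cyba).
Cybb: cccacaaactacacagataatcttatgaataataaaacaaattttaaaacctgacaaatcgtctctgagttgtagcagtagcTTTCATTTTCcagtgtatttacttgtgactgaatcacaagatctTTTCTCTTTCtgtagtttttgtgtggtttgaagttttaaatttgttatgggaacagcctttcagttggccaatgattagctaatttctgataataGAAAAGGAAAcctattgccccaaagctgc
Ncf1: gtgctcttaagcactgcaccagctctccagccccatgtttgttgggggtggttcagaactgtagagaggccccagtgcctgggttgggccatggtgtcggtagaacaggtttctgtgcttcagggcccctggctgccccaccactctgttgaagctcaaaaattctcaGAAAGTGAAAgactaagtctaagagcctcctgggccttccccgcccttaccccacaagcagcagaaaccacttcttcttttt
Cyba: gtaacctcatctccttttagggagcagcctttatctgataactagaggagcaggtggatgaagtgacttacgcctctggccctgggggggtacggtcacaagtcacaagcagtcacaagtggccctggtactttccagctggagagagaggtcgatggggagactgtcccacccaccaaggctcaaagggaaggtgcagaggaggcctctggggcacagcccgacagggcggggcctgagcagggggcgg
The Cybb window held 3 matches, whose first bases lie 168, 124 and 29 bases before the start. The Ncf1 window held 1, at 82 bases before it, and the Cyba window held 0. Of all 32851 windows of this length, 2.98% held at least 1 match. The core of the gamma interferon activated site (GAS), TTC and GAA with any 3 bases between them, matched 1 time in Ncf1, 88 bases before the start and overlapping the ISRE core, and 0 times in Cybb and Cyba (7.02% of all windows held it). The string GAGGAA, a form of the Spi1 (PU.1) site, matched 0 times in the 3 windows (23.25% of all windows held it). Shorter or other forms of that site were not searched. A match is a string of letters and was not tested as a site.

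Array medians were 6.85 to 6.92 in culture and 7.29 to 7.32 in spleen on the log2 scale, and whether the authors normalized the tissues together or apart is not known, which bears on every difference between culture and spleen. The class II genes H2-Ab1, H2-Eb1 and Cd74 were lower in KO in all 4 pairs of groups, H2-Eb1 by differences of -5.51 to -1.89, and H2-Aa was lower in all but spleen CD24+ cells (-0.51, adjusted p = 0.653). The Ciita probe set gave -1.76 and -2.63 in cultured CD24+ and CD172a+ cells and 0.03 and -0.23 in the spleen subsets, none of them called, and whether it lies in the deleted stretch is not known. Of 10 cDC1 markers, 7 were higher and 1 lower in cultured CD24+ than in cultured CD172a+ cells, and 9 were higher in spleen CD24+ than in spleen CD172a+ cells. Of 10 cDC2 markers, 4 were lower and 1 higher in cultured CD24+ cells, against 9 lower in spleen CD24+ cells. Of all genes 11.2% were higher and 13.7% lower in cultured CD24+ cells, and 15.6% and 13.4% in spleen CD24+ cells. The mean of all 10 cDC2 markers was 7.90 to 7.96 in cultured CD172a+ arrays, above the array medians, against 10.92 to 10.96 in spleen CD172a+ arrays. Within that list Sirpa read 11.07 to 11.37 in cultured CD172a+ cells. Cd209a, Mgl2, Esam and Cd4 averaged 6.39, 5.61, 6.55 and 6.14 there, below the array medians, against 11.8, 7.96, 9.14 and 10.3 in spleen CD172a+ cells. The CD24+ array of BM culture KO replicate 2 stood apart, where the cDC1 receptor Xcr1 read 9.58 and Sirpa 9.17. The remaining cultured CD24+ arrays had Xcr1 at 10.40 to 10.87 and Sirpa at 8.36 to 8.43. The mean level of 5 pan-cDC markers was 9.65 to 9.82 in CD24+ and 8.43 to 8.78 in CD172a+ arrays of the culture, against 10.94 to 11.26 in spleen. The part of this drop in the differences of the subunits was not tested. In bulk RNA, fewer cells of a type and less RNA per cell cannot be told apart.

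Cybb was the subunit with the widest difference between the subsets of the spleen, and it was lower in CD24+ cells of both tissues. In spleen, Cybb read 9.64 and 8.78 in KO and 9.47 and 9.70 in WT CD24+ cells, against 12.25 and 12.05 in KO and 12.11 and 11.99 in WT CD172a+ cells. No CD24+ array came within 2 log2 units of a CD172a+ array. The mean was 9.40 ± 0.42 in CD24+ and 12.10 ± 0.11 in CD172a+ cells (SD, n = 4 arrays each), a difference of -2.70 ± 0.19 (standard error, SE) or 6.50-fold (limma, adjusted p = 3.76e-07). The lowest CD24+ array, spleen KO replicate 2, also had the highest level of 2 neutrophil genes, S100a8 at 10.07 and Ngp at 10.51. Without that array the Cybb difference was -2.48.

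In activated culture the order of the subsets was kept. Cybb read 10.39 and 9.59 in KO and 10.17 and 10.60 in WT CD24+ cells, against 11.68 and 11.60 in KO and 11.95 and 12.11 in WT CD172a+ cells. The arrays of the subsets were again apart, and the difference was -1.64 ± 0.19, or 3.13-fold (adjusted p = 5.68e-05). The gap was narrower in culture than in spleen by 1.06 ± 0.27 (adjusted p = 0.0117). This change was not called with the WT arrays alone in the contrast (0.82, adjusted p = 0.192). Over the 8 groups Cybb was highest in spleen CD172a+ and cultured CD172a+ WT cells, whose ranges overlapped, then in cultured CD172a+ KO cells. The 4 CD24+ groups followed, each overlapping the next.

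Cyba, the partner of Cybb in the membrane, varied far less. In spleen, Cyba read 13.20 and 13.24 in KO and 13.28 and 13.21 in WT CD24+ cells, against 13.36 and 13.36 in KO and 13.32 and 13.38 in WT CD172a+ cells. The spleen arrays of the subsets did not overlap, yet the difference of -0.12 ± 0.06 did not pass the test (adjusted p = 0.143, 95% interval -0.248 to 0.003). In culture, Cyba read 13.18 and 12.93 in KO and 13.02 and 13.03 in WT CD24+ cells, against 12.67 and 12.60 in KO and 12.61 and 12.70 in WT CD172a+ cells. Here CD24+ cells were higher by 0.39 ± 0.06, or 1.31-fold (adjusted p = 2.96e-04), opposite in direction to Cybb in the same arrays. The subset difference was higher in culture than in spleen by 0.52 ± 0.08 (adjusted p = 4.67e-04). In order of level Cyba ran from spleen CD172a+ through spleen CD24+ and cultured CD24+ to cultured CD172a+ cells, each step without overlap, while KO and WT overlapped at every step.

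Ncf1, the organizer, differed in the direction of Cybb in the spleen, by a smaller size. Spleen Ncf1 read 9.72 and 9.76 in KO and 9.64 and 9.87 in WT CD24+ cells, against 10.21 and 10.10 in KO and 10.13 and 10.30 in WT CD172a+ cells. The subsets did not overlap, and CD24+ cells were lower by 0.44 on the log2 scale (-0.44 ± 0.07, 1.36-fold, adjusted p = 3.48e-04). In culture the subsets overlapped, with 11.03 and 10.98 in KO and 10.99 and 10.92 in WT CD24+ cells, against 11.07 and 11.01 in KO and 11.22 and 10.99 in WT CD172a+ cells. That difference was -0.09 ± 0.07 (adjusted p = 0.414, 95% interval -0.24 to 0.06). The change of the subset difference between culture and spleen was 0.35 ± 0.10 (adjusted p = 0.0182). With the arrays of 1 genotype alone in the contrast it was 0.38 in KO and 0.32 in WT, neither called (adjusted p = 0.0843 and 0.155). All 4 culture groups of Ncf1 overlapped in order of level and lay above the spleen groups, of which both CD172a+ groups lay above both CD24+ groups.

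Ncf4, the PI3P-binding subunit, differed most between the subsets of the culture. It read 10.81 and 9.40 in KO and 10.42 and 10.64 in WT cultured CD24+ cells, against 7.86 and 7.20 in KO and 8.34 and 8.19 in WT cultured CD172a+ cells. The lowest CD24+ array was KO replicate 2, and it still lay above each CD172a+ array. CD24+ cells were higher by 2.42 ± 0.24, or 5.35-fold (adjusted p = 1.45e-05), and by 2.61 without both arrays of BM culture KO replicate 2.

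In spleen Ncf4 was nearly level. It read 11.16 and 11.04 in KO and 11.24 and 10.99 in WT CD24+ cells, against 11.26 and 11.02 in KO and 11.16 and 11.21 in WT CD172a+ cells. The subsets overlapped and the difference was -0.05 ± 0.24 (adjusted p = 0.908, 95% interval -0.57 to 0.47). The SE comes from a spread shared with the culture arrays, which varied more. The subset difference was higher in culture than in spleen by 2.47 ± 0.34 (adjusted p = 1.53e-04), the widest such change of the 5 subunits. In order of level the 4 spleen groups overlapped at the top, then came cultured CD24+ cells, cultured CD172a+ WT cells and, lowest, cultured CD172a+ KO cells.

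Rac2 had opposite subset differences in the 2 tissues. In culture, Rac2 read 11.38 and 10.23 in KO and 10.85 and 11.40 in WT CD24+ cells, against 9.67 and 9.00 in KO and 10.06 and 10.12 in WT CD172a+ cells. CD24+ cells were higher by 1.25 ± 0.21, or 2.38-fold (adjusted p = 8.13e-04), with KO replicate 2 the lowest array of both subsets. In spleen, Rac2 read 11.67 and 11.66 in KO and 11.77 and 11.76 in WT CD24+ cells, against 12.43 and 12.41 in KO and 12.45 and 12.47 in WT CD172a+ cells.

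The spleen arrays of Rac2 were tight and apart, and CD24+ cells were lower by 0.73 on the log2 scale (-0.73 ± 0.21, 1.65-fold, adjusted p = 0.0213). This call was lost when any 1 of the 8 spleen arrays was left out (-0.73 to -0.72, adjusted p = 0.0537 to 0.0594). It was also lost with the arrays of either genotype alone in the contrast (-0.70 and -0.75). The spread in these fits still included the culture arrays. With the spread taken from the spleen arrays alone the adjusted p was 2.31e-06, and with the mouse as a fixed block it was 3.75e-04. The subset difference was higher in culture than in spleen by 1.98 ± 0.30 (adjusted p = 3.37e-04). In order of level Rac2 ran from spleen CD172a+ through spleen CD24+ and cultured CD24+ to cultured CD172a+ cells, and among neighbours only KO and WT cultured CD24+ cells overlapped.

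**Figure D1:**
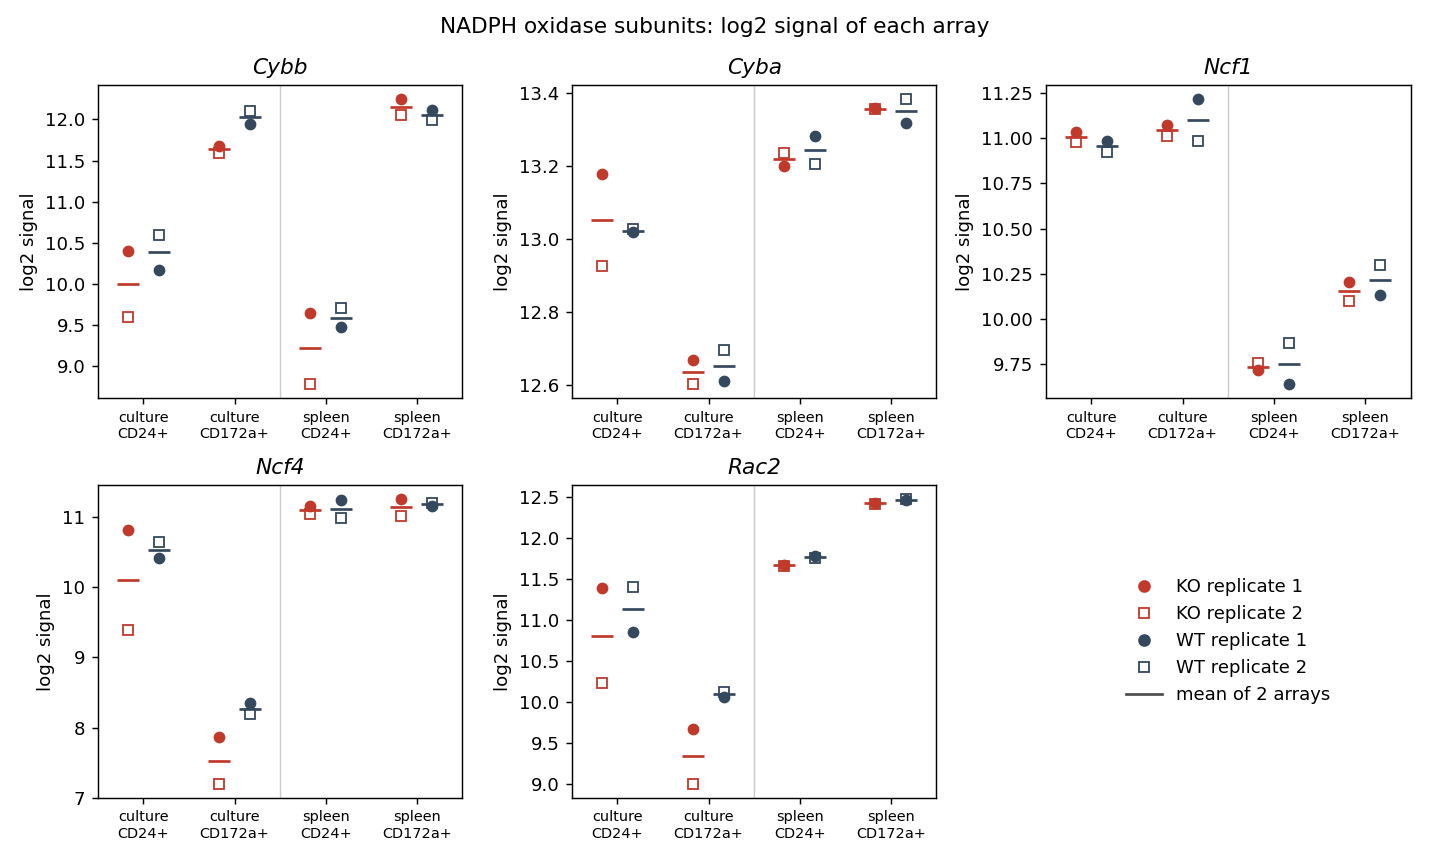
Log2 signal of the 5 NOX2 subunits in each of the 16 arrays (vertical axis, scaled per gene) by tissue and subset (horizontal axis), with KO left of WT and a bar at the mean of 2 arrays. Cybb lay lower in CD24+ than in CD172a+ cells of both tissues, while Ncf4 and Rac2 lay higher in CD24+ cells of the culture.

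The comparison within each mouse gave the same directions. Cybb was lower in the CD24+ array of 8 of 8 mice, by -2.00 to -1.28 in culture and -3.27 to -2.29 in spleen. Ncf4 was higher in the CD24+ array of 4 of 4 culture mice, by 2.07 to 2.95, and lay between -0.22 and 0.08 in the 4 spleen mice. Rac2 was 0.79 to 1.71 higher in CD24+ cells of the culture mice, and its difference lay between -0.76 and -0.68 in the spleen mice. Cyba was higher in CD24+ cells in 4 of 4 culture mice (0.32 to 0.51) and lower in 4 of 4 spleen mice (-0.18 to -0.04).

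**Figure D2:**
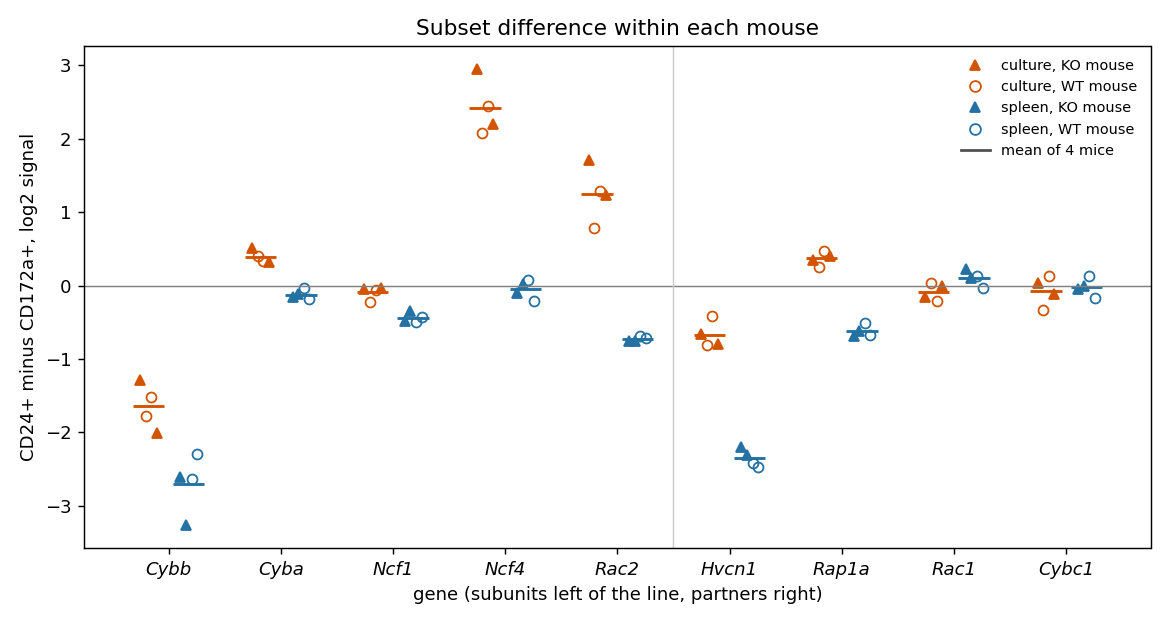
CD24+ minus CD172a+ log2 signal within each of the 8 mice (vertical axis) for the 5 subunits and 4 partners (horizontal axis), with culture left of spleen and a bar at the mean of 4 mice. In culture Cybb lies between -2.00 and -1.28 and Ncf4 between 2.07 and 2.95.

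Counted together, 3 subunits were higher and 1 lower in cultured CD24+ cells, where 24.9% of all genes were called (11.2% higher, 13.7% lower). In spleen CD24+ cells 0 subunits were higher and 3 lower, where 29.1% of all genes were called (15.6% higher, 13.4% lower). The subset difference was higher in culture than in spleen for 5 of 5 subunits, where 28.2% of all genes were called (12.5% higher, 15.7% lower). The median of the 5 subunits was 0.39 in culture, -0.44 in spleen and 1.06 for the change between them, against -0.03, 0.03 and -0.06 for the median gene.

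Culture and spleen differed in source, growth, activation and array median, which cannot be told apart. The median gene was 0.34 lower in CD24+ and 0.28 lower in CD172a+ cells of the culture (-0.34 and -0.28), and 79.1% and 76.8% of all genes were called. Of the subunits, 2 were higher and 3 lower in cultured CD24+ cells, where 13.8% of all genes were higher and 65.3% lower. In cultured CD172a+ cells 1 was higher and 3 lower, where 16.6% of all genes were higher and 60.2% lower. The shares that were lower are near the background. Of the genes called, 17.4% were higher in culture in CD24+ and 21.6% in CD172a+ cells. These shares were 54.4% and 56.9% after quantile normalization over the 16 arrays, and 61.5% and 62.6% with each array centred on its median.

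Ncf4 and Rac2 fell most in the culture, in CD172a+ cells. The mean of Ncf4 was 7.90 ± 0.51 in cultured and 11.16 ± 0.11 in spleen CD172a+ cells (SD, n = 4 arrays each), a change of -3.26 ± 0.24 (adjusted p = 6.70e-08) and of -2.98 relative to the median gene. Rac2 averaged 9.71 ± 0.51 in cultured and 12.44 ± 0.03 in spleen CD172a+ cells, a change of -2.73 ± 0.21 (adjusted p = 1.21e-07) and of -2.45 relative to the median gene. In CD24+ cells the changes were -0.79 ± 0.24 for Ncf4 (adjusted p = 0.00876) and -0.75 ± 0.21 for Rac2 (adjusted p = 0.00610), or -0.46 and -0.41 relative to the median gene. Those calls were lost with median-centred arrays (-0.33 and -0.29) and with WT arrays alone in the contrast (-0.58 and -0.64).

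Ncf1 rose in the culture in both subsets. It averaged 10.98 ± 0.05 in cultured and 9.75 ± 0.09 in spleen CD24+ cells, a change of 1.23 ± 0.07 (adjusted p = 5.38e-09) and of 1.57 relative to the median gene. In CD172a+ cells the means were 11.07 ± 0.10 and 10.19 ± 0.09 in culture and spleen, a change of 0.89 ± 0.07 (adjusted p = 1.16e-07), or 1.17 relative to the median gene.

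Cybb rose in CD24+ cells, with 10.19 ± 0.43 in culture and 9.40 ± 0.42 in spleen, a change of 0.79 ± 0.19 (adjusted p = 0.00235) and of 1.12 relative to the median gene. The cultured and spleen arrays of Cybb overlapped there. In CD172a+ cells Cybb gave -0.27 ± 0.19 (adjusted p = 0.222, 95% interval -0.69 to 0.15), 0.01 relative to the median gene and 0.16 with median-centred arrays. Cyba fell in cultured CD172a+ cells, to 12.65 ± 0.05 against 13.35 ± 0.03 in spleen (-0.71 ± 0.06, adjusted p = 1.87e-07). That change was -0.43 relative to the median gene and -0.28 with median-centred arrays. In CD24+ cells Cyba gave -0.19 ± 0.06 (adjusted p = 0.00823), but 0.14 relative to the median gene and 0.27 with median-centred arrays, so that its direction depends on the scaling.

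Ciita loss, the question of the study, gave no call for a subunit. By limma, 0 of the 5 subunits passed in any of the 4 genotype comparisons, where 0.0602% (spleen CD24+), 0.0802% (spleen CD172a+), 0.0953% (cultured CD24+) and 0.0602% (cultured CD172a+) of all genes were called. An unadjusted p under 0.05 was found for 2 subunits, Ncf4 and Rac2 (0.0494 and 0.0275), both in cultured CD172a+ cells. There Rac2 read 9.67 and 9.00 in KO and 10.06 and 10.12 in WT cells, a difference of -0.75 ± 0.30 (adjusted p = 0.688, 95% interval -1.41 to -0.10). Ncf4 gave -0.74 ± 0.34 in the same arrays (adjusted p = 0.750, 95% interval -1.474 to -0.002). KO lay below WT without overlap for both genes and for Cybb (-0.39 ± 0.27, adjusted p = 0.869).

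BM culture KO replicate 2 was the lowest array for Ncf4 and Rac2 in both subsets. Without both of its arrays the differences in cultured CD172a+ cells were -0.41 for Ncf4 and -0.42 for Rac2, and without the CD172a+ array of KO replicate 1 they were -1.07 and -1.09, none of them called. In cultured CD24+ cells the same step turned -0.43 into 0.28 for Ncf4, -0.32 into 0.26 for Rac2 and -0.39 into 0.01 for Cybb. Without the CD24+ array of KO replicate 1, where replicate 2 alone stands for KO, Ncf4 (-1.13, adjusted p = 0.00897) and Rac2 (-0.89, adjusted p = 0.0372) were called. In spleen CD24+ cells Cybb gave -0.37 ± 0.27 (adjusted p = 1.00), and 0.06 without KO replicate 2, the array with the highest S100a8 and Ngp. There 6 of 12 neutrophil markers had an unadjusted p under 0.05 between KO and WT by limma, and 0 were called (median 0.94). Of all genes, 901 had such a p. The part of other cells in these values was not tested. Rac2 KO arrays lay below WT arrays in both spleen subsets, by differences of -0.10 ± 0.30 and -0.05 ± 0.30 (adjusted p = 1.00 for both). For Cyba and Ncf1 the 95% intervals of the 4 comparisons stayed between -0.28 and 0.26. Over mice (n = 4 per genotype) the differences ran from -0.31 for Ncf4 to -0.002 for Cyba, and 0 of 5 subunits passed, with 0 at an unadjusted p under 0.05, where 0.0903% of all genes were called. Without the mouse of BM culture KO replicate 1, Ncf4 (-0.56, adjusted p = 0.00644) and Rac2 (-0.53, adjusted p = 0.0148) were called over mice, and without that of replicate 2 they gave -0.05 and -0.08.

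**Figure D3:**
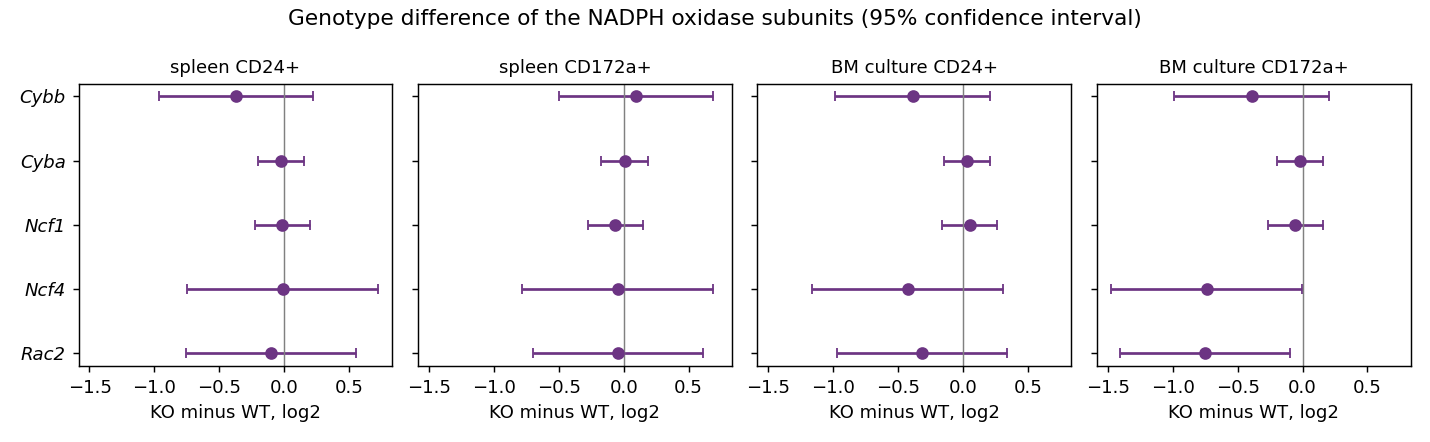
KO minus WT log2 difference (horizontal axis) of the 5 subunits (vertical axis) in the 4 pairs of tissue and subset, with 95% confidence intervals from limma as bars. The intervals of Ncf4 and Rac2 in cultured CD172a+ cells reach from -1.474 to -0.002 and from -1.41 to -0.10, and those of Cyba and Ncf1 are the narrowest.

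Partners of NOX2 were described in the same way. Hvcn1, the voltage-gated proton channel that balances the charge NOX2 moves, differed in the direction of Cybb in both tissues. In spleen it read 7.88 and 7.70 in KO and 7.73 and 7.72 in WT CD24+ cells, against 10.09 and 10.01 in KO and 10.15 and 10.20 in WT CD172a+ cells, a difference of -2.35 ± 0.10 (5.10-fold, adjusted p = 3.52e-09). In culture the difference was -0.67 ± 0.10 (adjusted p = 3.73e-04), with 6.74 ± 0.17 in CD24+ and 7.41 ± 0.32 in CD172a+ cells, against 7.76 ± 0.08 and 10.11 ± 0.08 in spleen CD24+ and CD172a+ cells. Culture minus spleen was -1.02 ± 0.10 in CD24+ and -2.70 ± 0.10 in CD172a+ cells (-0.69 and -2.42 relative to the median gene).

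Rap1a, a small GTPase that copurifies with the membrane heterodimer, differed in the direction of Rac2 in both tissues. It was higher in cultured CD24+ cells by 0.37 ± 0.07 (adjusted p = 0.00240) and lower in spleen CD24+ cells (-0.62 ± 0.07, adjusted p = 3.52e-05). The change of its subset difference between culture and spleen was 0.99 ± 0.10 (adjusted p = 1.91e-05). Rac1, the widely expressed relative of Rac2, gave -0.08 ± 0.06 in culture (adjusted p = 0.329) and 0.11 ± 0.06 in spleen (adjusted p = 0.18). Cybc1, the chaperone of the heterodimer, gave -0.07 ± 0.09 and -0.02 ± 0.09 (adjusted p = 0.676 and 0.884). The 95% intervals of Rac1 and Cybc1 lay between -0.28 and 0.23 in both tissues.

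**Figure D4:**
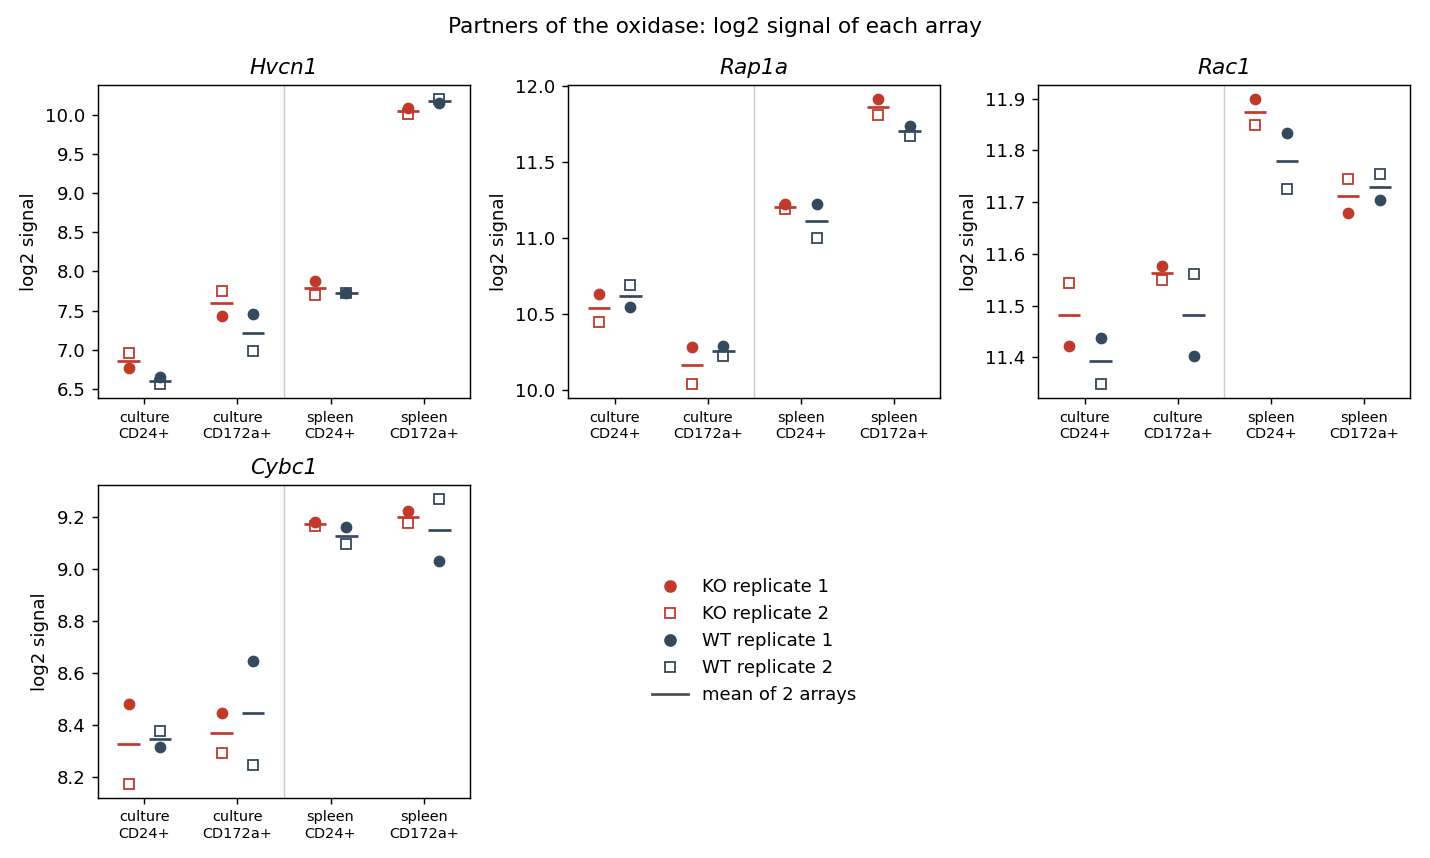
Log2 signal of 4 partners of NOX2 in each array (vertical axis, scaled per gene) by tissue and subset (horizontal axis), with KO left of WT and a bar at the mean of 2 arrays. Hvcn1 lies at 10.01 to 10.20 in spleen CD172a+ cells and at or below 7.88 in the other conditions.

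The other NADPH oxidases (Nox1, Nox3, Nox4, Duox1, Duox2 and partners) had a list mean of 6.02 to 6.22 on the log2 scale. It lay between the lower quartile and the median of each of the 16 arrays. By limma 0 of 9 passed in either subset comparison or in the change between tissues. Of all genes 24.9% were called in culture, 29.1% in spleen and 28.2% for the change. An unadjusted p under 0.05 was found for 1 of the 9 in spleen and 0 in culture. Against spleen, 1 was higher and 4 lower in cultured CD24+ cells, and 1 higher and 3 lower in cultured CD172a+ cells, where 65.3% and 60.2% of all genes were lower. Noxo1, the Ncf1-like organizer of Nox1, had the widest of these changes (-0.53 and -0.60, or -0.19 and -0.33 relative to the median gene). It averaged 7.125 and 7.234 in cultured and 7.654 and 7.836 in spleen CD24+ and CD172a+ cells, above the array medians.

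Of the kinases, exchange factors and inhibitors that act on NOX2 or Rac, 17 of 19 were measured. In cultured CD24+ cells 7 were higher and 3 lower (median 0.13), and in spleen CD24+ cells 3 were higher and 10 lower (median -0.33), beside 11.2% higher and 13.7% lower of all genes in culture and 15.6% and 13.4% in spleen. Vav1, a Rac exchange factor of blood cells, was 2.77 higher in cultured CD24+ cells (adjusted p = 9.40e-08), Arhgap15, a Rac GTPase-activating protein, 2.13 higher (adjusted p = 2.41e-05) and Tiam1, another exchange factor, 1.38 higher (adjusted p = 1.09e-05). Prex1, an exchange factor as well, was lower there (-0.79, adjusted p = 1.70e-04).

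In spleen CD24+ cells Tiam1 was 1.79 higher (adjusted p = 4.81e-07). Lower there were Pla2g4a, the cytosolic phospholipase A2 (-1.42, adjusted p = 2.27e-08), and the kinases Prkcb (-1.24, adjusted p = 6.74e-07) and Syk (-1.19, adjusted p = 8.27e-07). The subset difference of this list was higher in culture than in spleen for 9 of 17 genes and lower for 0, with a median of 0.42. Of all genes 12.5% were higher and 15.7% lower in that comparison. Prkcb gave 1.71 in it (adjusted p = 1.68e-06). The kinase Mapk14 fell in the culture in both subsets, by changes of -3.53 in CD24+ (-3.20 relative to the median gene, adjusted p = 6.35e-11) and -3.89 in CD172a+ cells (-3.61, adjusted p = 2.12e-11). In CD24+ cells Arhgap25 (-2.94), Pla2g4a (-2.12) and Prkcb (-1.49) fell as well. Arhgap15 (-3.43), Prkcb (-3.20) and Arhgap25 (-2.89) fell in CD172a+ cells.

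Of 16 genes of vesicle traffic to the phagosome, 8 were higher and 3 lower in cultured CD24+ cells, against 2 higher and 2 lower in spleen CD24+ cells. Of all genes 11.2% were higher and 13.7% lower in culture, and 15.6% and 13.4% in spleen, so that the spleen counts are near the background. Rab27a, the GTPase known to deliver NOX2 to DC phagosomes, was 0.61 higher in cultured CD24+ cells (adjusted p = 0.00185), as were the syntaxin Stx7 (0.85, adjusted p = 3.43e-05) and the chloride exchanger Clcn3 (0.66, adjusted p = 0.00501), while the lipid kinase Pik3c3 was lower (-0.52, adjusted p = 1.66e-04). In spleen CD24+ cells Vamp3 (0.45, adjusted p = 0.00156) and Rab7 (0.31, adjusted p = 8.78e-04) were higher. Uvrag (-0.54, adjusted p = 6.49e-05) and Rubcn (-0.25, adjusted p = 0.0194), which act on the PI3P-making kinase complex, were lower there.

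Against spleen, 5 genes of this list were higher and 8 lower in cultured CD24+ cells, and 4 higher and 9 lower in cultured CD172a+ cells. In either direction these counts are near the background of 79.1% and 76.8% of all genes called. By direction, 13.8% of all genes were higher and 65.3% lower in CD24+ cells, and 16.6% and 60.2% in CD172a+ cells. In CD24+ cells Lamp2 rose by 0.99 (1.33 relative to the median gene), while Vamp8 (-0.96), Uvrag (-0.94) and Rubcn (-0.94) fell. In CD172a+ cells Uvrag (-1.80), Stx7 (-1.38), Clcn3 (-1.18) and Vamp8 (-1.05) fell.

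Of 13 measured genes that handle peroxide and superoxide, 3 were higher and 0 lower in cultured CD24+ cells, and 8 were higher and 1 lower in spleen CD24+ cells. Of all genes 11.2% were higher and 13.7% lower in culture, and 15.6% and 13.4% in spleen. The 3 higher in culture were the peroxiredoxins Prdx2 (0.83, adjusted p = 2.19e-05) and Prdx1 (0.78, adjusted p = 3.48e-06) and Gpx1 (0.39, adjusted p = 0.00240), whose arrays overlapped between the subsets. In spleen Gclc, the catalytic subunit of the first step of glutathione synthesis, was 2.18 higher (adjusted p = 7.90e-06), its modifier Gclm 0.72 (adjusted p = 4.68e-06), the heme oxygenase Hmox1 0.99 (adjusted p = 0.00358) and Txn1 0.78 (adjusted p = 4.58e-07). Hmox1, catalase (Cat) and Gpx1 fell in the culture in both subsets, by changes between -2.84 and -1.64. Gclc fell in CD24+ cells (-1.72), and Txn1 rose by 2.05 in CD172a+ cells.

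Of the 59 measured partners and listed genes, 0 were called between KO and WT in the 4 pairs of groups, with an unadjusted p under 0.05 in 16 of the 236 tests. Of all 19938 genes, 901 to 1406 had such a p in each of these comparisons.

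Markers of other cells, among them phagocytes that use the same oxidase, were read beside these results. Of all genes 11.2% were higher and 13.7% lower in cultured CD24+ cells, and 15.6% and 13.4% in spleen CD24+ cells. Of 11 monocyte and macrophage markers, 3 were higher and 2 lower in cultured CD24+ cells, and 1 was higher and 6 lower in spleen CD24+ cells. The mean log2 level of the list was 7.001 to 7.143 in CD24+ and 6.67 to 6.79 in CD172a+ arrays of the culture. In spleen it was 7.79 to 7.95 in CD24+ and 8.32 to 8.84 in CD172a+ arrays, with a median difference of -0.41 over the 11 genes. Of 12 neutrophil markers, 4 were higher and 1 lower in spleen CD24+ cells, with a list mean of 6.42 to 8.30 in CD24+ and 6.44 to 6.75 in CD172a+ arrays. Of 6 pDC markers, 5 were higher and 1 lower in spleen CD24+ cells (list mean 8.97 to 9.18 in CD24+ and 8.26 to 8.36 in CD172a+ arrays), and of 5 T cell and NK markers 2 were higher (6.95 to 7.24 and 6.59 to 6.67). Of 3 erythroid markers 1 was higher there, and their mean was highest, at 7.72, in the CD24+ array of spleen KO replicate 2. In culture 0 neutrophil markers were called (1 at an unadjusted p under 0.05), and the list mean was 5.74 to 6.01 in all 8 arrays. The part of such cells in the subset differences was not tested.

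Genes with the pattern most like each subunit were taken over the 16 arrays, each centred on the mean of its tissue, among 9969 genes above the median level. Pearson's r is a description here, since arrays of 1 mouse share a source and 2 arrays share a group. Nearest to Cybb were Nod1 (0.98), Ticam2 (0.97) and Zeb2 (0.97), and nearest to Cyba were Napsa (0.97), Gsn (0.96) and Arhgap27 (0.96). Ncf1 was most like Coq8a (0.95), H2-K2 (0.94) and Pbx2 (0.94). Nearest to Ncf4 were Fxyd5 (0.99), Alox5ap (0.99) and Riox2 (0.99), and nearest to Rac2 were Pea15a (0.98), Ptprc (0.97) and Cd68 (0.97).

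Among the subunits the same measure was 0.92 for Cyba with Ncf4, 0.89 for Cyba with Rac2, 0.88 for Ncf4 with Rac2 and 0.83 for Cybb with Ncf1. Cybb gave -0.38 with Ncf4, -0.19 with Cyba and 0.08 with Rac2. Within the 8 culture arrays Cybb gave -0.81 with Cyba, and within the 8 spleen arrays it gave 0.87.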

How the data were processed

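The authors deposited a log2 value for every probe set and array. Their background correction, normalization and summarization are not given in the sources used here. Per the labels, RNA was amplified with the Ovation Pico WTA system. The scale was judged from the range of the values. The members and lists were chosen with earlier results of these data known. Of 30177 probe sets, 21789 had 1 symbol (21698 named through their Entrez ID), 1621 several and 6767 none; each of the 5 subunits had 1 probe set. Other genes with more than 1 were represented by the probe set with the highest mean.

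limma 3.58.1 (R 4.3.3) fitted 1 mean per group to the 16 arrays (8 residual and 3.95 prior degrees of freedom), or to the 8 mouse means for genotype over mice. All tests were 2-sided. P-values were adjusted over the 19938 genes by Benjamini and Hochberg's method, and a gene was called at an adjusted p under 0.05. On simulated data for the subset difference in spleen (19938 genes), changes of 0.5, 1, 2 and 4 were recovered in 78, 92, 100 and 100% of cases. The 2 arrays of a mouse come from the same animal per the labels; their deviations from the group means correlated across genes at 0.39 and 0.20 in culture KO and WT, and 0.20 and -0.10 in spleen KO and WT. KO and WT mice are different animals. Genes named by rule are the subunits, all measured partners, the class II genes and the 3 genes most alike to each subunit. Per list other than the cell type markers, up to 4 called genes with the largest change in each subset and culture comparison were added. Single cell type markers and the neighbours on chromosome 15 were named outside this rule. The number of arrays limits the precision. Alternatives were the mouse as a block, quantile normalization, median centring, a filter on dim genes and other probe set rules. Further ones were arrays of 1 tissue alone, contrasts within 1 genotype, robust eBayes and left-out arrays or mice. The contrasts within 1 genotype kept all 16 arrays in the fit.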

Additional observations from a re-analysis of the deposited data

Results flagged for a closer look

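The difference between CD24+ and CD172a+ cells itself differed between culture and spleen, by the limma test of that difference, for all 5 subunits and 2 partners. The values, culture minus spleen on the log2 scale, were 1.06 for Cybb, 0.52 for Cyba, 0.35 for Ncf1, 2.47 for Ncf4, 1.98 for Rac2, 0.99 for Rap1a and 1.68 for Hvcn1. Of all genes, 28.2% were called in this comparison. Groups held 2 arrays, so no array was tested against its own group.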

How the results depend on the processing

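With the mouse as a replicate block, which the pairing of arrays by animal allows, the 5 subunits kept every call of the subset comparisons; Rac2 in spleen had an adjusted p of 0.011 with a random and 0.000375 with a fixed block. Counts of called genes were 3548 for the spleen subset difference with WT arrays alone, 2676 for the culture subset difference with KO arrays alone, and 3262 (WT) and 3361 (KO) for the change between tissues. Testing every probe set gave 21 and 25 calls between KO and WT in spleen CD24+ and CD172a+ cells, and fitting culture arrays alone gave 4 and 7 in cultured CD24+ and CD172a+ cells. These settings use fewer arrays or more features.

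Leaving out 1 array or mouse gave 1 to 35 KO against WT calls in spleen CD24+, 13 to 21 in spleen CD172a+, 10 to 1269 in cultured CD24+ (11 without both arrays of BM culture KO replicate 2), 7 to 45 in cultured CD172a+ cells and 9 to 484 over mice. The 1269 calls arose without the CD24+ array of BM culture KO replicate 1, where KO replicate 2 alone stands for KO, and Ncf4 and Rac2 were then called at -1.133 and -0.894. Subset counts ran from 4783 to 6611 in spleen, 3849 to 5866 in culture and 4814 to 6480 for the change between them.

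With median-centred arrays Cyba turned to 0.268 in culture against spleen in CD24+ cells and Cybb to 0.158 in CD172a+ cells. After quantile normalization the Cyba KO minus WT value was 0.02 in spleen CD24+, -0.005 in spleen CD172a+ cells and 0.007 over mice. Without both arrays of BM culture KO replicate 2, KO minus WT in cultured CD24+ cells was 0.012 for Cybb, 0.282 for Ncf4 and 0.256 for Rac2, and Cyba gave 0.015 in cultured CD172a+ cells and 0.038 over mice.

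Uncalled values also changed sign when 1 array was left out. The Ncf4 spleen subset difference ran from -0.115 to 0.012. KO minus WT in spleen CD24+ cells ran from -0.805 to 0.058 for Cybb, -0.064 to 0.012 for Cyba, -0.128 to 0.095 for Ncf1 and -0.14 to 0.113 for Ncf4. In spleen CD172a+ cells it ran from -0.002 to 0.195 for Cybb, -0.026 to 0.039 for Cyba, -0.146 to 0.019 for Ncf1 and -0.168 to 0.076 for Ncf4. In cultured CD24+ cells it ran from -0.79 to 0.012 for Cybb, -0.097 to 0.155 for Cyba, -1.133 to 0.282 for Ncf4 and -0.894 to 0.256 for Rac2. In cultured CD172a+ cells it ran from -0.06 to 0.026 for Cyba and -0.172 to 0.057 for Ncf1, and over mice from -0.041 to 0.038 for Cyba and -0.07 to 0.027 for Ncf1. The cause of these changes was not tested. With 2 arrays a group, the number of arrays limits the precision of the genotype differences.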

Other observations

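Ncf4 and Rac2 lie on chromosome 15 with 10 other protein-coding genes between them in the RefSeq annotation, and all 10 were tested. In cultured CD24+ against cultured CD172a+ cells 2 of them were higher and 0 lower, where 11.2% of all genes were higher and 13.7% lower. These were Csf2rb, the shared receptor chain for GM-CSF, IL-3 and IL-5 (1.82), and its relative Csf2rb2 (0.48), which was also higher in spleen CD24+ cells (0.42). The subset difference was higher in culture than in spleen for 1 neighbour, Csf2rb (1.80), and lower for 1, Mpst (-0.61). Of all genes 12.5% were higher and 15.7% lower in that comparison. These neighbours were looked up after the values of Ncf4 and Rac2 had been seen.

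In cultured CD24+ cells 4 of 5 pan-cDC markers were higher than in cultured CD172a+ cells, among them Itgax (2.62), the integrin CD11c, and Flt3 (0.45), the receptor for Flt3l. Zbtb46 was lower (-0.41). Of all genes 11.2% were higher and 13.7% lower in that comparison. The lysozyme gene Lyz2, from the list of 11 monocyte and macrophage markers, was also higher in cultured CD24+ cells (4.59, adjusted p = 1.73e-08). Of that list 3 were higher, 2 lower and 6 not called in the same comparison, with a median difference of -0.041.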
